A study of Mus musculus with 4 samples.

Results

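The cells described here are conventional donor T cells of mice with acute graft-versus-host disease that held transcripts of cyclin E and almost none of 3 mitotic genes, called G1-S cells below. They were chosen by their counts in 4 single-cell libraries. A cell had to carry at least 3 unique molecular identifiers (UMIs, each standing for 1 captured transcript) of Ccne1 and Ccne2 together, and at most 1 UMI of Ube2c, Cdc20 and Ccnb1 together. Its antibody counts for CD45.1, divided by those for CD45.2 (both plus 1), had to give a log2 ratio above 2.2. This left 826 cells, which were 2.65% of 31180 conventional cells and 2.29% of all 36140 cells kept, which had 500 genes or more and no more than 10% of UMIs from mitochondrial genes. They were compared with 8700 cyclin E-negative conventional cells, which had no Ccne1 or Ccne2 UMI and the same bound on the mitotic genes. A second comparison was made with 6853 mitotic-transcript cells, which had no cyclin E UMI and at least 5 UMIs of the 3 mitotic genes.

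All recipients were BALB/c mice irradiated with 900 cGy and given T cell-depleted bone marrow of CD45.1+ CD45.2+ C57BL/6 donors. Regulatory T (Treg) cells, sorted as CD4+ Foxp3-GFP+ CD25hi and CD45.2+ CD45.1-, were transferred with the marrow and were the only cells that differed between groups. They were CD226-/-TIGIT+/+ (CD226KO), CD226+/+TIGIT-/- (TIGITKO), CD226-/-TIGIT-/- (double knockout, DKO) or CD226+/+TIGIT+/+ (wild type, WT). CD45.1+ CD45.2- CD4+ and CD8+ conventional T cells followed 2 days later, and these were wild type in every group, so the G1-S cells themselves carried no knockout. Donor T cells (H-2Kb+ TCRb+, viable) were sorted from the spleen 8 days after induction, with 3 pooled per sample (whether recipients or donors is not stated), and stained again with DNA-barcoded antibodies to the 2 CD45 alleles. There was 1 library per Treg genotype, so no test between genotypes was possible. The 4 libraries served as replicates (n = 4) for comparisons between classes of cells within a library, with the Treg genotype differing among them.

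As background, cyclin E binds and activates the kinase CDK2 late in G1. The complex completes the phosphorylation of RB, which frees E2F transcription factors to drive genes for DNA replication, among them the cyclin E genes themselves. Origins are licensed in G1 when ORC, CDC6 and CDT1 load the MCM helicase, and they fire in S phase when CDK2 and CDC7 act on that helicase. Cyclin E is then marked for destruction by the ubiquitin ligase that contains FBXW7. T cells that meet alloantigen leave quiescence and divide rapidly, which makes the spleen of such recipients rich in cycling donor T cells.

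Members numbered 193 in CD226KO, 189 in TIGITKO, 290 in DKO and 154 in WT, and all values for single libraries below are given in that order. The cells of the 4 libraries held 82630541 to 86675591 UMIs in all. G1-S cells were deeper than cyclin E-negative cells, with median UMIs per cell of 9629, 8695, 10101.5 and 10859, against 5412, 4557, 5468 and 5628 in cyclin E-negative cells. Mitotic-transcript cells had medians of 9927, 8630, 9713 and 10682. Mitochondrial UMIs were 3.47% to 3.61% of the median member and 4.38% to 4.54% of the median cyclin E-negative cell. A rule on UMI numbers favours deep cells, so the comparison was repeated with cyclin E-negative cells matched one to one by total UMIs within library and lineage, and these values are called depth-matched. Medians of the matched cells were 9657, 8636, 9082 and 10543, so in DKO depth still differed. It also still differed in the CD8 cells of DKO (10739 in G1-S and 8723 in matched cells) and of WT (11771 and 10523). The DKO and TIGITKO libraries came from lane 4 and the other libraries from lane 3, so lane and TIGIT status cannot be told apart. Each pair of libraries shared 16 to 27 cell barcodes, 131 in all, and of the members 4 had a barcode also present in another library. No doublet caller was used, but 21 of 826 members held UMIs of Cd4 and of a Cd8 gene, as did 31 of 8700 cyclin E-negative and 182 of 6853 mitotic-transcript cells.

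Markers of T cells were present in members (12 of 12 genes with a UMI in each library, summed level 6319 to 7203 CPM in G1-S cells and 8346 to 8994 CPM in cyclin E-negative cells). CPM are a gene's UMIs scaled to a total of 1000000 UMIs over the summed cells. Of 14 B and plasma cell genes, 5 had no UMI in any member, Cd79a and Ms4a1 among them, but the list summed to 124 to 129 CPM in G1-S cells and 189 to 203 CPM in cyclin E-negative cells, most of it Ighm (69.3 CPM in G1-S cells) and Cd74 (31.8 CPM). Of 10 neutrophil genes 3 had no UMI, Ngp and Retnlg among them, and the list summed to 1.71 to 5.73 CPM in G1-S cells and 4.30 to 6.54 CPM in cyclin E-negative cells. Macrophage and dendritic markers were summed to 115 to 140.2 CPM in G1-S cells and 86.8 to 109 CPM in cyclin E-negative cells, and at least 12 of their 14 genes had a UMI in each library. Treg markers stood at 277 to 336 CPM in G1-S cells and 404 to 479.6 CPM in cyclin E-negative cells. Klra4 and Klra8 were at 0 among 8 NK markers, whose sum, 3226 to 5417 CPM in G1-S cells and 2761 to 3078 CPM in cyclin E-negative cells, was almost wholly Gzma, which cytotoxic T cells also express. Erythroid and platelet genes set the WT library apart: they summed to 39.0, 19.96, 45.17 and 29.2 CPM in G1-S cells, against 55.3, 20.8, 46.9 and 316 CPM in cyclin E-negative cells. Hbb-bs, a haemoglobin gene of that list, had a log2 fold of -1.48, and of -0.23 without WT (adjusted p = 0.22). The part of these markers in the results was not tested.

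The genes of the rule are given as a description only. Ccne1 supplied 2375 of the cyclin E UMIs of members and Ccne2 681, so 77.7% were Ccne1. Ccne1 stood at 247, 308, 272 and 275 CPM in G1-S cells, against 68.6, 75.4, 76.4 and 73.0 CPM over all conventional cells. Ccne2 stood at 90.8, 91.8, 74.4 and 58.4 CPM in G1-S cells, against 13.8, 15.9, 16.6 and 13.8 CPM over all conventional cells. Both transcripts were found in 466 members, Ccne1 alone in 351 and Ccne2 alone in 9. Most members lay close to the limit, with exactly 3 cyclin E UMIs in 484 cells, 4 in 200, 5 in 91 and 6 or more in 51, up to 11. Of the mitotic genes, 411 members had no UMI and 415 had 1.

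The 920 cells with 2 cyclin E UMIs averaged 102 CPM of Ung, 61.6 CPM of E2f1 and 446 CPM of Rrm2, and the 484 members with 3 averaged 103, 60.1 and 532 CPM. At the other bound, the 415 members with 1 mitotic UMI averaged 99.3 CPM of Ung, 569 CPM of Rrm2 and 371 CPM of Top2a. The 330 cells with at least 3 cyclin E UMIs and 2 mitotic UMIs averaged 87.0, 630.3 and 409 CPM of the same genes. In all, 2719 conventional cells had at least 3 cyclin E UMIs and 2 or more mitotic UMIs. At the antibody limit, 39 members had a ratio from 2.2 to 2.4, and 30 cells that met the other limits lay from 2.0 to 2.2. These members averaged 102 CPM of Ung, 31.7 CPM of E2f1 and 705 CPM of Rrm2, and the cells outside averaged 52.4, 64.2 and 608 CPM, over few cells in each library.

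The genes proposed as the label of these cells, Ung, E2f1 and Rrm2, were higher in them than in both compared classes. These genes were chosen with earlier results of these data known, so their p-values are no separate test of the label. Ung, the uracil glycosylase that removes uracil from replicating DNA, had 115, 98.7, 97.6 and 98.5 CPM in G1-S cells, against 25.7, 30.5, 32.4 and 30.8 CPM in cyclin E-negative cells (log2 fold 1.79, SD 0.252, adjusted p = 1.9e-18). Mitotic-transcript cells had only 5.81, 11.1, 5.85 and 8.75 CPM of Ung (log2 fold 3.73, SD 0.477, adjusted p = 2.4e-24). Neither class overlapped the G1-S cells in any library. E2f1, the transcription factor released from RB, had 58.8, 51.9, 54.4 and 56.7 CPM in G1-S cells, against 15.9, 17.2, 20.2 and 18.7 CPM in cyclin E-negative cells (log2 fold 1.63, SD 0.180, adjusted p = 2.1e-15). In mitotic-transcript cells it had 10.8, 13.7, 11.8 and 13.4 CPM (log2 fold 2.17, SD 0.207, adjusted p = 1.2e-19). Rrm2, the small subunit of ribonucleotide reductase, had 554, 584, 514 and 542 CPM in G1-S cells, against 88.8, 123, 96.5 and 87.2 CPM in cyclin E-negative cells (log2 fold 2.49, SD 0.191, adjusted p = 5.5e-27), and 330.4, 408, 289 and 337 CPM in mitotic-transcript cells (log2 fold 0.70, SD 0.132, adjusted p = 6.4e-18). Again all 4 G1-S values lay above all 4 values of each other class. Here and below the adjusted p comes from edgeR's quasi-likelihood test with Benjamini-Hochberg adjustment over all genes tested, and the SD is that of the 4 log2 ratios. The test's variance estimate is shared in part across genes, so a small p does not measure the spread of the 4 ratios.

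The label G1 to S fitted the cells only in part, because transcripts of later S phase and of G2 were present as well. Over 62 S-phase genes the median member held 7874, 7686, 7777 and 7849 CPM, against 1395, 1473, 1528 and 1478 CPM in the median cyclin E-negative cell and 3461, 3968, 3461 and 3693 CPM in the median mitotic-transcript cell. Over 38 genes of G2 and mitosis, none of them in the rule, the median member held 2982, 3308, 3127 and 3094 CPM. That lay above 632, 756, 706 and 649 CPM in cyclin E-negative cells and below 11430, 10788, 11290 and 11015 CPM in mitotic-transcript cells. Members thus stood highest for S-phase genes and between the other classes for G2 and mitosis genes in every library. The cyclin E-negative class was itself mixed, since its cells at the 90th percentile held 6280 to 7014 CPM of the S-phase genes, above the 5197 to 5747 CPM of members at the 10th percentile.

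**Figure D1:**
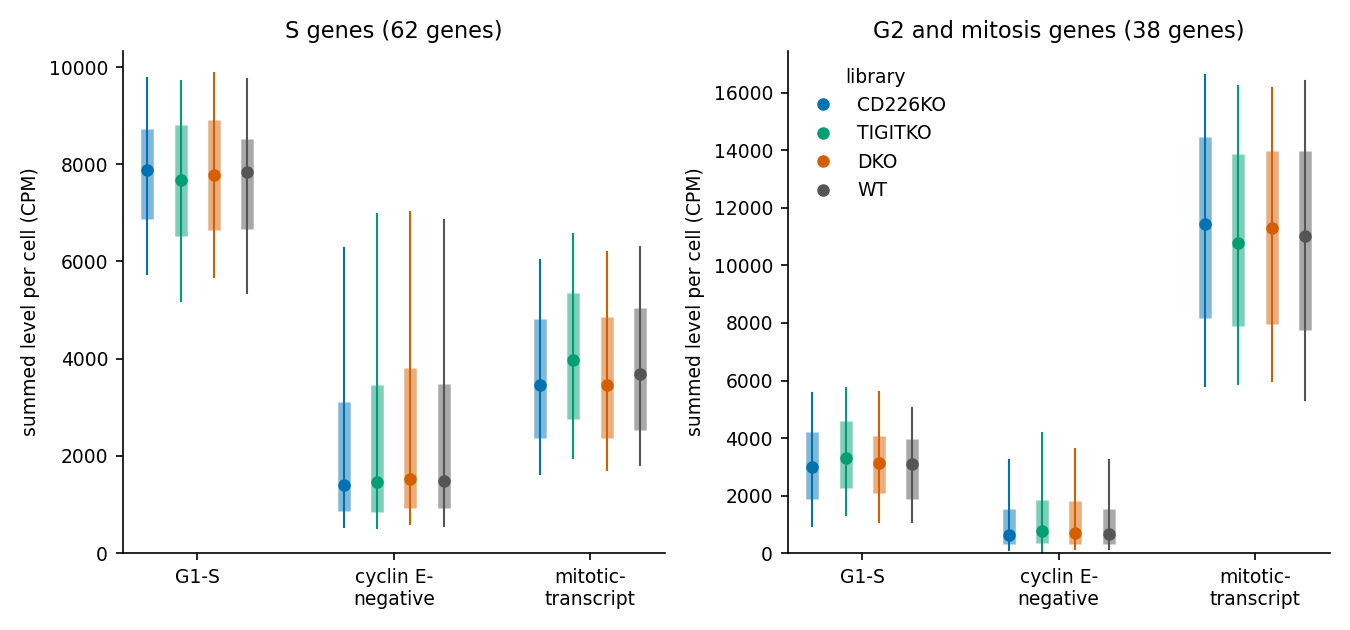
Per-cell levels of the S-phase list (62 genes) and of the G2 and mitosis list (38 genes), in CPM, for G1-S, cyclin E-negative and mitotic-transcript cells of each library. G1-S cells stand highest for the S-phase list, with medians of 7686 to 7874, and between the other classes for the G2 and mitosis list, with medians of 2982 to 3308.

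G1-S cells differed from cyclin E-negative cells in 5117 of 9945 genes tested (51.5%), so that a call means little without its size. Of these genes 2612 were higher (26.3%) and 2505 lower (25.2%) at an adjusted p of at most 0.05. At least 1.5-fold differences made up 1161 of the higher (11.7%) and 1041 of the lower calls (10.5%). The 5 genes of the rule were left out of the tests. Since both classes were formed on counts of the same cells, the calls say which other transcripts went with cyclin E in a cell. Against depth-matched cyclin E-negative cells 1132 genes were higher and 1065 lower. The number of genes tested in that fit is not given, so depth-matched counts here and below stand without a share over all genes. Of 4566 called genes that could be tested there, 4386 kept their sign and 2104 were called with the same sign. The members also held more CD8 cells than the cyclin E-negative class, as given below with the shares.

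The E2F and RB regulators were higher as a group, with 12 of 13 genes called higher and 1 lower. Their median log2 fold was 1.18, against -0.02 over all genes tested, and 0.71 depth-matched. E2f7 and E2f8, repressors that close the S-phase programme and are E2F targets themselves, were among the steepest. E2f8 had 58.8, 58.7, 54.7 and 53.8 CPM in G1-S cells, against 8.67, 11.5, 10.9 and 10.4 CPM in cyclin E-negative cells (log2 fold 2.46, SD 0.190, adjusted p = 7.5e-19). No value overlapped between the classes. Mybl2, which prepares cells for G2 gene expression, averaged 47.9 ± 4.34 CPM in G1-S cells and 9.27 ± 1.12 CPM in cyclin E-negative cells (SD, n = 4; log2 fold 2.39). Rbl2, the pocket protein p130 of resting cells, was the one lower gene, at 16.8 ± 2.60 CPM in G1-S cells and 24.7 ± 2.67 CPM in cyclin E-negative cells (log2 fold -0.57, adjusted p = 3.1e-04). Against mitotic-transcript cells 7 of the 13 were higher and 1 lower, again Rbl2 (log2 fold -0.40, and -0.39 with adjusted p = 0.054 depth-matched). In that comparison 2225 of 10204 genes were higher (21.8%) and 2181 lower (21.4%), which made 43.2% called.

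Of 16 genes for CDK2 activation and cyclin E turnover, 11 were higher and 1 lower (median log2 fold 0.62, 0.39 depth-matched). Cdk2, the kinase partner of cyclin E, had 42.5, 36.5, 39.1 and 34.4 CPM in G1-S cells, against 13.4, 18.0, 17.9 and 15.95 CPM in cyclin E-negative cells (log2 fold 1.24, SD 0.280, adjusted p = 5.9e-11). The phosphatase Cdc25a, which activates CDK2, had 42.0, 45.06, 39.8 and 45.23 CPM in G1-S cells, against 15.8, 15.1, 18.0 and 14.0 CPM in cyclin E-negative cells (log2 fold 1.43, SD 0.228, adjusted p = 9.7e-13). Both genes were higher in all 4 libraries, with no overlap between the classes. Skp2, part of the ubiquitin ligase that removes the CDK inhibitor p27, averaged 26.2 ± 5.66 CPM in G1-S cells and 6.72 ± 0.209 CPM in cyclin E-negative cells (log2 fold 1.98, adjusted p = 3.5e-13) and was higher than in mitotic-transcript cells too (log2 fold 2.05). Fbxw7, the receptor that targets cyclin E for destruction, did not pass the test (log2 fold 0.21, adjusted p = 0.059). It passed without the DKO library (log2 fold 0.32, adjusted p = 0.019) and without the CD226KO library (log2 fold 0.26, adjusted p = 0.048).

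Ccnd2 and Ccna2 went opposite ways. Ccnd2, an early G1 cyclin, had 141, 163, 167 and 148 CPM in G1-S cells, against 211, 228, 232 and 222 CPM in cyclin E-negative cells (log2 fold -0.51, SD 0.060, adjusted p = 6.1e-11). It was the one lower gene of its list, yet it was higher than in mitotic-transcript cells (105, 115, 118 and 121 CPM; log2 fold 0.44, adjusted p = 1.1e-08). Ccnd3 did not pass either test (log2 fold 0.10 and -0.07), although it passed against cyclin E-negative cells without DKO (0.16, adjusted p = 0.0092) and against mitotic-transcript cells without CD226KO (-0.12, adjusted p = 0.048). Ccna2, the cyclin of S phase and G2, had 90.8, 117, 105 and 97.3 CPM in G1-S cells, against 27.2, 35.0, 26.6 and 22.4 CPM in cyclin E-negative cells (log2 fold 1.90, SD 0.178, adjusted p = 9.7e-20), and 381, 374, 360.1 and 354 CPM in mitotic-transcript cells (log2 fold -1.83). Ccna2 therefore stood between the other classes in every library.

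The CDK inhibitors had no common direction, with 3 of 7 higher and 3 lower. Cdkn1b, which encodes p27, the inhibitor of cyclin E-CDK2, had 35.1, 30.8, 26.7 and 32.1 CPM in G1-S cells, against 56.7, 52.99, 50.9 and 56.6 CPM in cyclin E-negative cells (log2 fold -0.80, SD 0.093, adjusted p = 1.9e-09). Depth-matched, its log2 fold was -0.22 and did not pass (adjusted p = 0.2). Cdkn1a, which encodes p21, was higher at 55.7 ± 5.38 CPM in G1-S cells and 36.6 ± 5.22 CPM in cyclin E-negative cells (log2 fold 0.62, adjusted p = 1.1e-06), but depth-matched it had a log2 fold of -0.18 (adjusted p = 0.33). Cdkn2c, which encodes the CDK4 and CDK6 inhibitor p18 and is an E2F target, was higher (log2 fold 1.79, 1.38 depth-matched). Against mitotic-transcript cells 5 of 8 inhibitors were lower, with Cdkn3 (log2 fold -1.86) and Cdkn2d (-1.81) lowest, and Cdkn1a was higher (1.15).

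**Figure D2:**
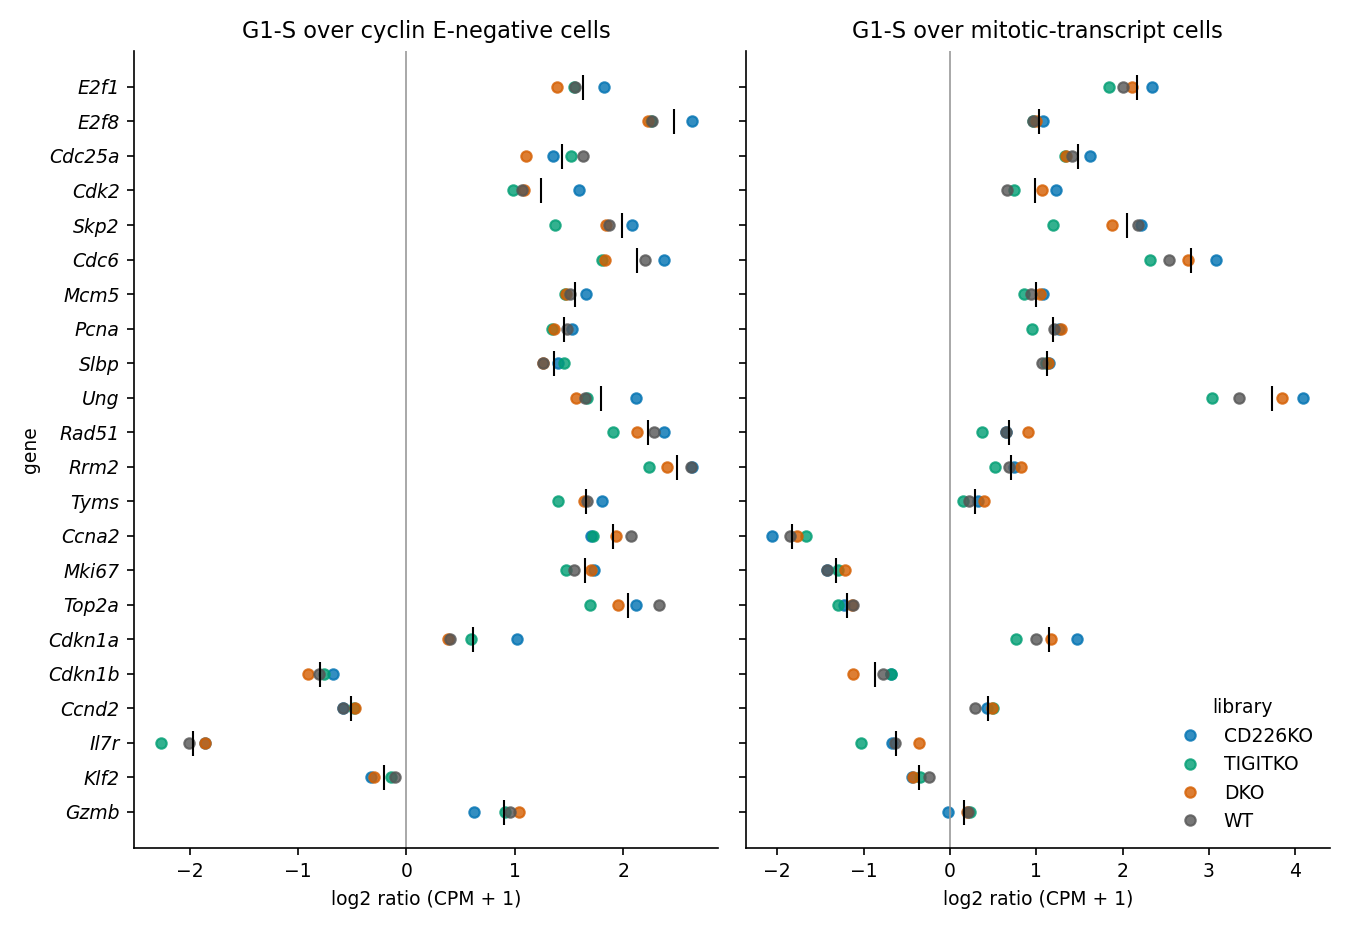
Log2 ratio of selected cell-cycle and T cell genes in G1-S over cyclin E-negative cells and in G1-S over mitotic-transcript cells. Each library is 1 point, and a bar marks the fit. Ung and Cdc6 are higher in G1-S cells of every library in both comparisons. Top2a is higher than in cyclin E-negative cells and lower than in mitotic-transcript cells. Il7r is lower than in cyclin E-negative cells.

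Origin licensing and firing genes were all higher: 29 of 29 tested were called, with a median log2 fold of 1.55 (0.86 depth-matched, where 27 of 28 were higher). Cdc6, which loads the MCM helicase on origins, had 85.4, 73.0, 61.1 and 73.3 CPM in G1-S cells, against 15.7, 20.2, 16.4 and 15.1 CPM in cyclin E-negative cells (log2 fold 2.13, SD 0.280, adjusted p = 4.9e-18). Mitotic-transcript cells had 9.21, 13.9, 8.22 and 11.7 CPM of Cdc6, the largest log2 fold of the list in that comparison (2.79, SD 0.33). Mcm5, a subunit of the helicase, had 251, 262, 248 and 251 CPM in G1-S cells, against 78.9, 94.6, 89.1 and 87.7 CPM in cyclin E-negative cells (log2 fold 1.55, SD 0.091, adjusted p = 1.4e-22). Neither gene overlapped between the classes. The helicase genes Mcm2 to Mcm7 had log2 folds from 1.29 (Mcm6) to 1.66 (Mcm7). Mcm10 (2.23), Clspn (2.16), which signals stalled forks, and Cdc45 (2.07), a part of the active helicase, were steeper, and Orc3, an origin-binding subunit, was the least steep (0.36, adjusted p = 0.07 without the DKO library). Cdt1, which loads the helicase, and Gmnn, its inhibitor, rose together (log2 folds 1.02 and 1.63). Against mitotic-transcript cells 26 of 29 were higher and only Dbf4, the activator of CDC7, was lower (log2 fold -1.19).

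Promoters are printed below to show what the search found. Cdc6, Mcm5 and Mcm6 of this list, and Cdk2, carry an E2F-type motif. Ccne1, the gene of the rule, carries none in the same window. Neither do Ung, E2f1, Rrm2, Pcna, Slbp, E2f8 and Top2a, which were also higher and are not printed. Each line covers 250 bases before to 50 bases after the start site, 5′ to 3′ on the gene's strand, from the RefSeq promoter table of build GRCm38.p6. Capitals mark matches to TTTCCCGC, TTTGGCGC, TTTCGCGC or TTTGCCGC or their reverse complements.
Cdc6 (chr11:98907901-98908200, plus strand): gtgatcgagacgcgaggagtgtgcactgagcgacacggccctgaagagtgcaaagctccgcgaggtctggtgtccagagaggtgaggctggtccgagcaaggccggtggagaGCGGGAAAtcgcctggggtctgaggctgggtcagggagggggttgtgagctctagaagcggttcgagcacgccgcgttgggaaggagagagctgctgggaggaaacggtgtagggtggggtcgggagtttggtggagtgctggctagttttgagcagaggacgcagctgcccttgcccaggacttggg
Mcm5 (chr8:75109259-75109558, plus strand): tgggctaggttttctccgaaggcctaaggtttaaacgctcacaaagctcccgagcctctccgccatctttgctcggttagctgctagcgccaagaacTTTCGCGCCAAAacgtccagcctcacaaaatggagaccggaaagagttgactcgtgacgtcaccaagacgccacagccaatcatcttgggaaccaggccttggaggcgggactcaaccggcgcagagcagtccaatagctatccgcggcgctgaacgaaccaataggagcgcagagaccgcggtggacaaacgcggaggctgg
Mcm6 (chr1:128359656-128359955, minus strand): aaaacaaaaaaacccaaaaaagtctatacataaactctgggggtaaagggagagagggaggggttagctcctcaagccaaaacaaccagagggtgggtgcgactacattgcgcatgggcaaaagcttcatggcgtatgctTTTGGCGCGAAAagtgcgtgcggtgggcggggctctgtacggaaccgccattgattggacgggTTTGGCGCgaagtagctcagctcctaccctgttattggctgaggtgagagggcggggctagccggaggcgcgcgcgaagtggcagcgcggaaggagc
Cdk2 (chr10:128705002-128705301, minus strand): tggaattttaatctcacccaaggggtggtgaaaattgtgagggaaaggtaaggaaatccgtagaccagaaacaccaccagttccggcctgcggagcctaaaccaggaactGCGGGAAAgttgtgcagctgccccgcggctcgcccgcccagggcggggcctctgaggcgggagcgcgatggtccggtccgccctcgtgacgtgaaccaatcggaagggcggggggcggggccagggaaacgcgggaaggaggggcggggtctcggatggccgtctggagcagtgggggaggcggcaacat
Ccne1 (chr7:38107441-38107740, minus strand): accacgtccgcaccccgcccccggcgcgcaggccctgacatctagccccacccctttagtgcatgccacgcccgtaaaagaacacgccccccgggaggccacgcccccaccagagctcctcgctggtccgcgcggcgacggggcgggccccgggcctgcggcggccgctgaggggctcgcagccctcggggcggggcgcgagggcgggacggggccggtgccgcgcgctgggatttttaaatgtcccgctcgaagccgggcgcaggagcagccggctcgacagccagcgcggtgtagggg
The Cdc6 match begins 138 bases before the start and the Cdk2 match 140. Mcm5 has a pair of overlapping matches at 153 and 149 bases, and Mcm6 has 3, at 110, 106 and 47 bases before the start, the first of which overlaps the next. A match describes these letters only, and a window without one says nothing about the factor.

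Such a motif was found in 2.26% of all 32851 promoter windows and in 5.01% of the 7802 tested genes with a window. It was found in 121 of 905 genes called at least 1.5-fold higher than in cyclin E-negative cells (13.4%) and in 10 of 810 called at least 1.5-fold lower (1.23%). By list, windows with a motif were 11 of 21 for licensing and firing, 5 of 11 for E2F and RB regulators, 8 of 27 for fork proteins, 7 of 18 for repair and 2 of 34 for G2 and mitosis. These are shares of promoters that vary in base composition, and they were not tested.

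All 33 genes of the replication fork were higher (median log2 fold 1.47, 0.87 depth-matched), and 29 of them were higher than in mitotic-transcript cells. Pcna, the clamp that holds the polymerases on DNA, had 291, 287, 300.3 and 292 CPM in G1-S cells, against 101, 113, 116 and 104 CPM in cyclin E-negative cells (log2 fold 1.45, SD 0.088, adjusted p = 3.0e-22). Chtf18 (log2 fold 2.12) and Dscc1 (2.05), parts of a clamp loader for sister cohesion, were the steepest, and Pole4, a small polymerase subunit, the least (0.65). Slbp, which binds histone mRNA and appears ahead of S phase, averaged 385 ± 26.4 CPM in G1-S cells and 151 ± 5.76 CPM in cyclin E-negative cells (log2 fold 1.36), and 177 ± 11.1 CPM in mitotic-transcript cells (log2 fold 1.13). Asf1b, a histone chaperone, was higher than in cyclin E-negative cells (1.93) and did not pass against mitotic-transcript cells (-0.01).

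Deoxynucleotide supply was higher for 12 of 14 genes and lower for 2 (median log2 fold 1.15, 0.73 depth-matched). Beside Rrm2, the largest fold was that of the thymidine kinase Tk1 (log2 fold 1.93). Tyms, the thymidylate synthase, had 300.2, 301, 311 and 288 CPM in G1-S cells, against 85.4, 113, 99.1 and 90.5 CPM in cyclin E-negative cells (log2 fold 1.65, SD 0.166, adjusted p = 2.1e-22), and its excess over mitotic-transcript cells was small (log2 fold 0.29). The lower genes were Samhd1, which degrades deoxynucleotides, and Cmpk2, an interferon-induced mitochondrial kinase. Samhd1 had 223, 179, 216 and 215 CPM in G1-S cells, against 334, 279.6, 299.9 and 311 CPM in cyclin E-negative cells (log2 fold -0.54, SD 0.073, adjusted p = 2.6e-12), but depth-matched the log2 fold was -0.12 (adjusted p = 0.13). Purine, pyrimidine and folate enzymes were higher in 22 of 22 cases (median 0.85, 0.41 depth-matched, where 17 were called), led by Shmt1 (1.52), Pfas (1.32) and Mthfd1 (1.24).

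Repair genes rose with the fork. Of 23 tested, 22 were higher (median log2 fold 1.85, 1.06 depth-matched), and the damage kinase Atr was not called (log2 fold 0.11). Rad51ap1 (2.38), Exo1 (2.31) and Brca1 (2.29), all of homologous recombination or mismatch repair, had the largest folds. Brca1 averaged 30.8 ± 0.866 CPM in G1-S cells and 6.37 ± 0.792 CPM in cyclin E-negative cells. Against mitotic-transcript cells 19 were higher. The lower pair there was Fancd2 (-0.71) and the glycosylase Neil3 (-0.51).

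Histone transcripts of the replication-dependent kind, which accumulate during DNA synthesis, were higher than in cyclin E-negative cells in 17 of 19 cases (median log2 fold 1.87, 1.32 depth-matched). Hist1h1b, a linker histone, had 1092, 1282, 1141 and 1045 CPM in G1-S cells, against 159, 226, 178 and 148 CPM in cyclin E-negative cells (log2 fold 2.71, SD 0.142, adjusted p = 1.8e-30). Hist1h2ap (2.72) and Hist1h2ab (2.63) were similarly steep. Compared with mitotic-transcript cells none of the 19 was higher and 16 were lower (median -0.47). Most such mRNAs lack a poly(A) tail and many copies are near identical, so a library primed on poly(A) counts them poorly and the split between copies is uncertain.

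Genes of G2 and mitosis beyond the rule were higher than in cyclin E-negative cells, 37 of 38 (median log2 fold 1.54, 1.05 depth-matched), with Pttg1 not called (log2 fold -0.02). Mki67, the proliferation antigen, had 270.1, 309.7, 312 and 267 CPM in G1-S cells, against 80.8, 111, 95.4 and 90.8 CPM in cyclin E-negative cells (log2 fold 1.64, SD 0.124, adjusted p = 6.1e-23). Top2a, the topoisomerase that untangles chromosomes, had 339, 327, 345 and 342 CPM in G1-S cells, against 77.3, 101, 88.6 and 67.4 CPM in cyclin E-negative cells (log2 fold 2.04, SD 0.268, adjusted p = 1.2e-22). Mitotic-transcript cells had 794, 807, 762 and 746 CPM of Top2a, well above the G1-S cells (log2 fold -1.19). The smallest excess was that of the kinetochore genes Cenpa (0.26) and Cenpf (0.54), while Ccnf (2.45), Nuf2 (2.25) and Cdk1 (2.21) had the largest. All 38 were lower than in mitotic-transcript cells (median -1.85), a class that was chosen for mitotic transcripts, so nothing is read from that count. Cenpf (-4.37) and Hmmr (-3.26) had the lowest folds.

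Across both comparisons, 1434 of 9882 genes tested in both were higher in G1-S cells than in either class and 1064 were lower than in either. Another 383 were higher than in cyclin E-negative and lower than in mitotic-transcript cells, the pattern of Ccna2 and Top2a. The reverse held for 139, with Ccnd2 among them. Both comparisons share the G1-S cells, so these counts are not independent. The mitotic-transcript cells were similar in depth, and of 4030 genes called there that could be tested depth-matched, all 4030 kept their sign and 3226 were called.

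**Figure D3:**
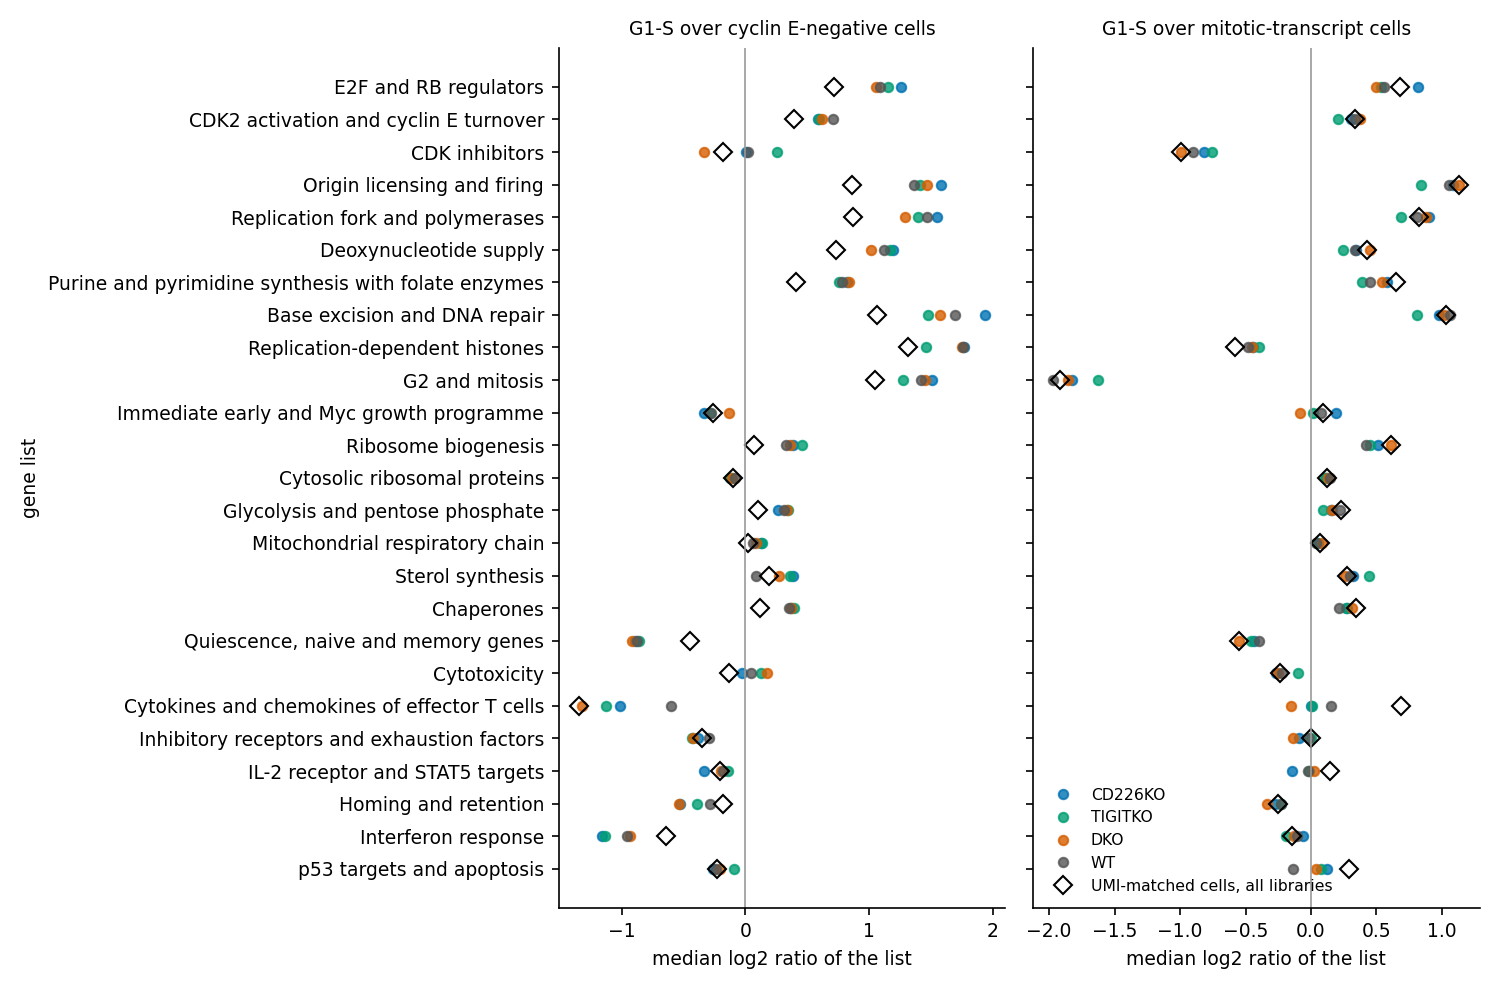
Median log2 fold of each gene list for G1-S cells against cyclin E-negative cells and against mitotic-transcript cells. Each library is 1 point, and an open diamond marks the fit to depth-matched cells of all libraries. Replication lists lie above 0 in both comparisons, histones and G2 and mitosis change sides, and quiescence genes lie below 0 in both.

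Growth genes were raised by less. Ribosome biogenesis was higher in 24 of 30 genes and lower in 1 (median log2 fold 0.41), but depth-matched the median was 0.07 and 7 genes were higher. Nop56, a core protein of the enzyme that methylates ribosomal RNA, was the steepest, at 196, 233, 205 and 235 CPM in G1-S cells, against 106, 125, 106 and 116 CPM in cyclin E-negative cells (log2 fold 0.95, 0.42 depth-matched). Cytosolic ribosomal protein genes went slightly the other way, 23 of 33 lower and 3 higher (median -0.09). Against mitotic-transcript cells 26 of 30 biogenesis genes (median 0.51) and 32 of 33 ribosomal protein genes (median 0.12) were higher. Chaperones were higher in 17 of 17 cases (median 0.40, 0.12 depth-matched, where 6 were called), led by Hsp90aa1 (1.07, 0.50 depth-matched), which assists many kinases.

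Metabolic lists showed the same small shifts. Glycolysis and pentose phosphate genes were higher in 13 of 20 cases and lower in 2 (median 0.39), and depth-matched 6 were higher and 2 lower (median 0.10), with Tpi1 the steepest (0.94, 0.38 depth-matched). The respiratory chain had 11 of 21 higher and 4 lower (median 0.13), but depth-matched 2 higher and 3 lower (median 0.02). Sterol synthesis had 8 of 18 higher (median 0.23), and depth-matched 2 of 17 (median 0.19), led by Idi1 (0.97). Of the immediate early and Myc programme 5 of 26 genes were higher and 11 lower (median -0.21). Myc itself had 20.7, 15.4, 22.9 and 18.9 CPM in G1-S cells, against 18.4, 23.6, 22.6 and 23.6 CPM in cyclin E-negative cells and did not pass (log2 fold -0.12, SD 0.334, adjusted p = 0.43). Within that list Mxd3, a MYC antagonist of dividing cells, was higher (2.24) and Mxd4, an antagonist of resting cells, lower (-1.93). The early genes Egr1 (-1.35), Egr2 (-1.40) and Cd69 (-0.80), which report recent receptor signalling, were lower.

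Genes of quiescent, naive and memory T cells were mostly lower, 24 of 26, with 1 higher (median log2 fold -0.93). Depth-matched, 12 of 22 were lower and 1 higher (median -0.45). Il7r, the receptor chain for the survival cytokine IL-7, had 42.0, 23.4, 36.3 and 26.9 CPM in G1-S cells, against 155, 116, 134 and 111 CPM in cyclin E-negative cells (log2 fold -1.97, SD 0.194, adjusted p = 2.6e-20). Tcf7, the transcription factor of naive and stem-like memory T cells, had 8.89, 7.99, 5.73 and 7.44 CPM in G1-S cells, against 62.6, 58.0, 54.5 and 73.4 CPM in cyclin E-negative cells (log2 fold -3.05, SD 0.230, adjusted p = 2.4e-19). Both were lower in every library with no overlap, and depth-matched the log2 folds were -1.13 and -1.68. Ccr7, the chemokine receptor for entry into lymph nodes, had the lowest fold (-3.75), but it was rare, with means of 0.612 CPM in G1-S cells, against 7.97 CPM in cyclin E-negative cells. The antiproliferative genes Btg1 (-1.73) and Pik3ip1 (-2.05) fell too. Klf2, which keeps T cells recirculating, was only slightly lower (-0.21), and depth-matched its log2 fold was 0.02 (adjusted p = 0.84). The gene that was higher was Ly6c2 (0.41), a surface marker of effector and memory CD8 cells. Mitotic-transcript cells held 10.6, 8.94, 11.3 and 9.35 CPM of Tcf7, close to the G1-S cells (log2 fold -0.48, adjusted p = 0.033, and -0.22 with adjusted p = 0.51 depth-matched). Of the 26 genes, 20 were lower and 3 higher in G1-S cells than in mitotic-transcript cells (median -0.57).

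Effector molecules were uneven. Among 17 cytotoxicity genes 8 were higher and 4 lower, with a median log2 fold of 0.12 that became -0.13 depth-matched. Gzmb, the main cytotoxic granule protease, had 2476, 2918, 3524 and 3289 CPM in G1-S cells, against 1606, 1550.3, 1719.8 and 1702 CPM in cyclin E-negative cells (log2 fold 0.90, SD 0.178, adjusted p = 4.0e-19), with no overlap. Depth-matched its log2 fold was 0.21 (adjusted p = 1.4e-07). CD8 cells were 42.6%, 52.8%, 57.9% and 42.6% of G1-S cells resolved by lineage, against 31.4%, 31.4%, 35.2% and 26.1% of cyclin E-negative cells, and the part of this in the cytotoxicity genes was not tested across the pooled cells. Within lineages the log2 ratio of Gzmb averaged 0.37 ± 0.12 in CD8 and 0.62 ± 0.14 in CD4 cells (SD, n = 4).

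Cytokine and chemokine genes were lower in 13 of 18 cases and higher in none (median log2 fold -1.25, -1.34 depth-matched). Tnfsf8, which encodes the CD30 ligand, had 13.8, 14.3, 13.4 and 11.5 CPM in G1-S cells, against 58.5, 81.7, 60.9 and 80.9 CPM in cyclin E-negative cells (log2 fold -2.35, SD 0.325, adjusted p = 4.0e-18), with no overlap. Il4 (-2.06) was lower in all 4 libraries, while the libraries of Xcl1 (-1.90) overlapped. Ifng, the main Th1 cytokine, did not pass and differed between libraries. It had 162, 255, 606 and 189.5 CPM in G1-S cells, against 299, 235, 172 and 182 CPM in cyclin E-negative cells (log2 fold 0.46, SD 1.12, adjusted p = 0.053). G1-S cells of DKO lay far above the other 3 libraries, and G1-S cells of CD226KO lay below their cyclin E-negative cells. Without DKO the log2 fold was -0.23 (adjusted p = 0.039), and without CD226KO it was 0.86 (adjusted p = 0.00016). Depth-matched it was -0.60 (adjusted p = 0.13). Against mitotic-transcript cells Ifng was called higher (log2 fold 0.73), but not without DKO (log2 fold 0.01, adjusted p = 0.93). In the same comparison 6 of 18 cytokine genes were higher and 3 lower.

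Interferon-response genes were lower in 23 of 25 cases and higher in none (median log2 fold -1.14), and depth-matched 15 of 21 were lower (median -0.64). Ifi27l2a, an interferon-induced mitochondrial protein, had 453, 445, 390.0 and 397 CPM in G1-S cells, against 1531, 1659.9, 1467 and 1682 CPM in cyclin E-negative cells (log2 fold -1.89, SD 0.134, adjusted p = 4.0e-28). Isg15, a ubiquitin-like protein induced by interferon, averaged 69.9 ± 11.6 CPM in G1-S cells and 159 ± 20.7 CPM in cyclin E-negative cells (log2 fold -1.14). Against mitotic-transcript cells 5 of 24 were higher and 8 lower (median -0.20), so the gap to that class was smaller.

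The remaining T cell lists also lay lower. Homing and retention genes were lower in 14 of 17 cases and higher in 3 (median -0.45), and depth-matched 8 of 12 were lower and 0 higher (median -0.18), with Ccr9 (-1.40), the gut-homing receptor, and Ccr2 (-0.72) among them. Inhibitory receptors and exhaustion factors had 8 of 16 lower and 3 higher (median -0.50). Lag3 (-0.61) and Ctla4 (-0.67) fell, Pdcd1 did not pass (0.02), and Tbx21, the Th1 transcription factor, was higher (0.47). Havcr2, which encodes TIM-3, was higher (0.35) but had -0.21 depth-matched. IL-2 receptor and STAT5 target genes had 7 of 16 lower and 1 higher (median -0.12), and Il2ra, the high-affinity chain, stood at 64.5 ± 10.9 CPM in G1-S cells and 65.7 ± 3.54 CPM in cyclin E-negative cells and did not pass (adjusted p = 1). Of p53 targets and apoptosis genes 11 of 21 were lower and 5 higher (median -0.24), Fas (-1.42) and Bbc3 (-1.77) falling.

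Outside the lists, the genes with the largest folds over cyclin E-negative cells were led by Esco2 and Hist1h1a. Esco2, which acetylates cohesin during S phase, had 73.6, 90.1, 85.6 and 80.2 CPM in G1-S cells, against 10.0, 17.03, 13.4 and 9.30 CPM in cyclin E-negative cells (log2 fold 2.74, SD 0.270, adjusted p = 7.9e-21). Fbxo5, which encodes the inhibitor EMI1 that holds back the anaphase-promoting complex, had 206, 209, 199.8 and 196 CPM in G1-S cells, against 33.6, 40.8, 38.3 and 29.3 CPM in cyclin E-negative cells (log2 fold 2.52, SD 0.179, adjusted p = 2.5e-25). Hist1h1a (2.73), the kinase Pbk (2.54), Aunip (2.48), Cdca5 (2.36), which encodes the cohesin protector sororin, Ncaph (2.09), Cenph (2.05), Rad54l (2.05) and Sgo1 (2.01) completed the 10. Against mitotic-transcript cells the highest 10 were Zmynd19 (2.32), Mb21d1 (2.03), which encodes the DNA sensor cGAS, Cdca7 (1.94), Cdca7l (1.55), Cenps (1.55), Mettl1 (1.5), Arl6ip6 (1.45), Wdr76 (1.42), Cd3eap (1.38) and Rrp15 (1.35).

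Slfn5 and Izumo1r had the lowest folds outside the lists, relative to cyclin E-negative cells. Slfn5, a Schlafen family gene induced by interferon, had 6.42, 9.13, 7.32 and 6.30 CPM in G1-S cells, against 52.2, 44.4, 44.2 and 48.1 CPM in cyclin E-negative cells (log2 fold -2.67, SD 0.309, adjusted p = 6.2e-17). Izumo1r, the folate receptor 4 of Treg and anergic CD4 cells, had 8.89, 14.8, 11.5 and 13.7 CPM in G1-S cells, against 46.2, 79.0, 41.3 and 71.4 CPM in cyclin E-negative cells (log2 fold -2.21, SD 0.268, adjusted p = 9.1e-17). Tbc1d4 (-2.16), Rgs10 (-1.89), H2-DMa (-1.72), Gpr183 (-1.65), a receptor that positions lymphocytes in the spleen, Ifi209 (-1.52), P2rx7 (-1.5), a receptor for extracellular ATP, Pdcd4 (-1.46) and Slfn1 (-1.42) followed. Against mitotic-transcript cells the lowest 10 included the spindle pole gene Aspm (-3.58), Pimreg (-3.51), Sapcd2 (-3.27), Prr11 (-2.82), Kpna2 (-2.43) and the histone variant gene H2afx (-2.27).

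**Figure D4:**
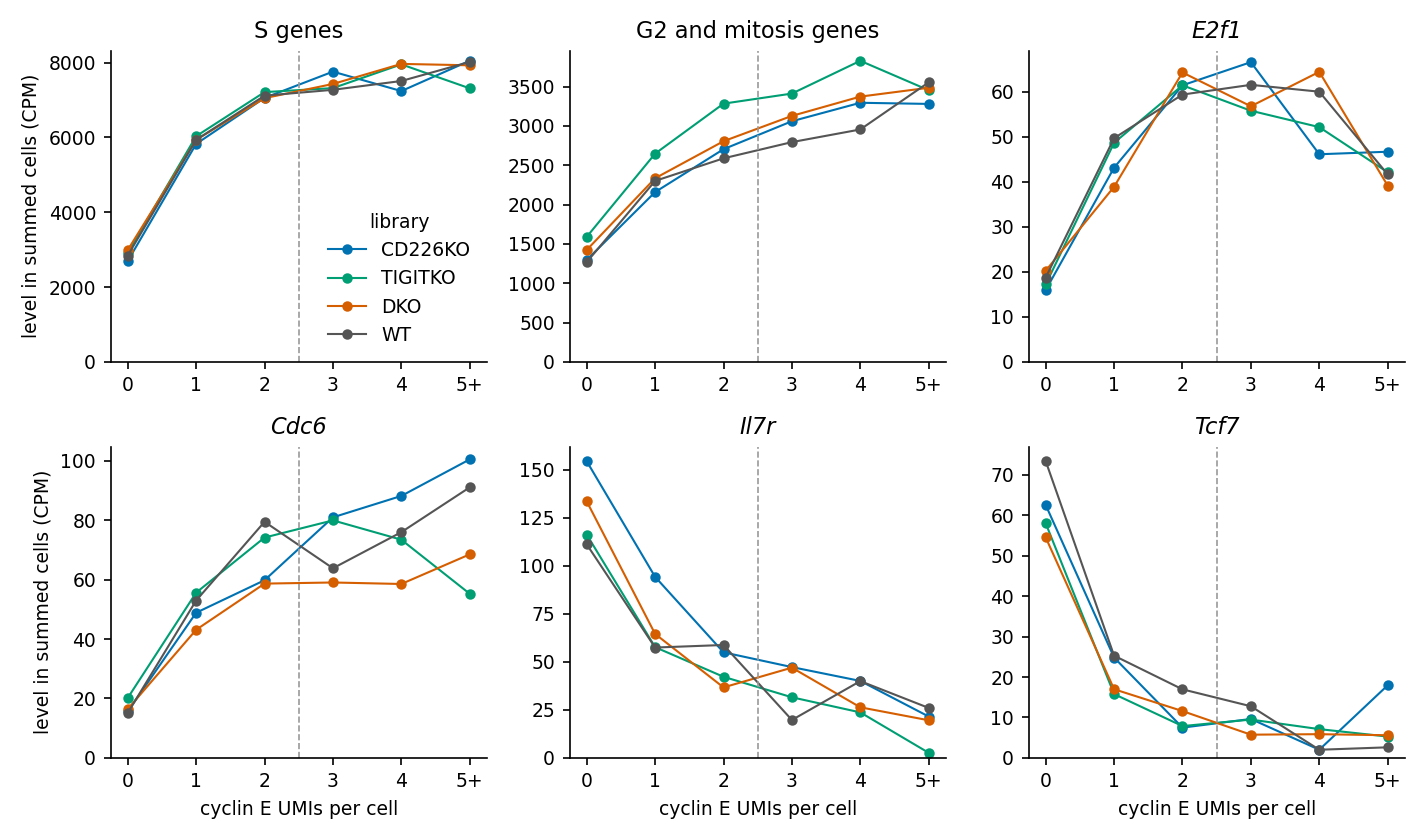
Level of the S-phase and G2 and mitosis lists and of single genes, in CPM, against the number of cyclin E UMIs in a cell. Conventional cells with at most 1 mitotic UMI are shown, with 1 line per library. Averaged over libraries, the S-phase list goes up to 7829 CPM at 5 or more UMIs, and Il7r goes down to 17.4 CPM.

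Levels changed stepwise with the cyclin E count, most of the change lying below the limit of 3. With 0, 1, 2, 3, 4 and 5 or more cyclin E UMIs there were 8700, 2057, 920, 484, 200 and 142 cells with at most 1 mitotic UMI. The S-phase list averaged 2862, 5934, 7110.3, 7446.5, 7669 and 7829 CPM over these steps. The G2 and mitosis list averaged 1394, 2360.3, 2845, 3098, 3362 and 3443 CPM. Both means went up at every step, but not in every library. The S-phase list fell from 3 to 4 UMIs in CD226KO (7760 to 7241 CPM). It fell from 4 to 5 or more in TIGITKO (7956 to 7314) and DKO (7968 to 7930), and rose throughout in WT. The G2 and mitosis list fell at the last step in CD226KO (3294 to 3279) and TIGITKO (3827 to 3453), and rose throughout in DKO and WT. The mean of E2f1 did not rise at every step, with 18.0, 45.06, 61.6, 60.1, 55.6 and 42.4 CPM, highest at 2 UMIs. Cdc6 averaged 16.8, 50.1, 68.0, 70.9, 74.0 and 78.8 CPM. Il7r averaged 129, 68.5, 48.2, 36.4, 32.5 and 17.4 CPM, a decline of the mean at each step. It declined throughout in CD226KO and TIGITKO. In DKO it rose from 2 to 3 UMIs (36.7 to 47.0 CPM). In WT it rose from 1 to 2 (57.5 to 58.8) and from 3 to 4 (19.7 to 40.0). Depth rose along the same axis, with median UMIs of 4557 to 5628 at 0 and 10955.5 to 13030 at 5 or more, and its part in these trends was not tested. Because the steps are cut from the rule's own genes, they are a description with no test.

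Within the members, the 2 cyclin E genes were compared with each other. Only 9 cells held Ccne2 without Ccne1 (1, 1, 6 and 1 in CD226KO, TIGITKO, DKO and WT), too few for a firm statement. Of 4150 genes tested against the 351 cells with Ccne1 only, 0 were higher (0%) and 1 was lower (0.0241%) by edgeR, 200 had an unadjusted p under 0.05, and DESeq2 called 0 lower. The lower gene was the chemokine Ccl4, with 0, 0, 27.8 and 0 CPM in Ccne2-only cells, against 421, 49.8, 323 and 430 CPM in Ccne1-only cells. A further split, added after these values were seen, set the members with any Ccne2 UMI against the 351 without one. Of 6757 genes, 2 were higher (0.0296%) and 3 lower (0.0444%) by edgeR, 0.074% in all, 336 had an unadjusted p under 0.05, and DESeq2 called 0.

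The 5 genes were Ifng, Ifitm3, Lgals3, Ccl5 and Isg15, and no replication list had a called member. Isg15 had 52.8, 34.6, 64.0 and 73.8 CPM in Ccne2-bearing cells, against 104, 87.9, 75.7 and 93.6 CPM in Ccne2-negative cells (log2 fold -0.63, adjusted p = 0.018), the one pair without overlap. Ifng (log2 fold 0.65) and Ifitm3 (0.44) were higher, and Lgals3 (-0.23) and Ccl5 (-0.31) lower, with overlapping libraries. The licensing list had a median log2 fold of -0.00018 and the fork list of 0.015, against 0.00040 over all genes. Cells with and without Ccne2 thus showed no called difference in replication genes at this number of cells.

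The share of conventional cells that met the rule was 2.49% in CD226KO (95% Clopper-Pearson interval 2.16 to 2.87), 2.15% in TIGITKO (1.86 to 2.48), 3.52% in DKO (3.13 to 3.94) and 2.401% in WT (2.04 to 2.81). DKO lay above the other 3 and its interval did not overlap theirs, but these intervals cover counting error only and each genotype was 1 library. The share depends on depth. After each cell was thinned to 4000 UMIs, which left out 596, 1212, 499 and 350 shallower cells, it was 0.812%, 0.912%, 1.07% and 0.792%, again highest in DKO, but the DKO interval (0.854 to 1.33) then overlapped those of CD226KO (0.617 to 1.05), TIGITKO (0.710 to 1.15) and WT (0.584 to 1.05). Conventional cells without a UMI of 6 other cell-cycle genes met the rule in 1 of 825, 1 of 863, 0 of 753 and 0 of 523 cases, but these cells were shallow, with median UMIs of 4695, 3961, 4725 and 4818, so they are no background at the depth of the members.

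**Figure D5:**
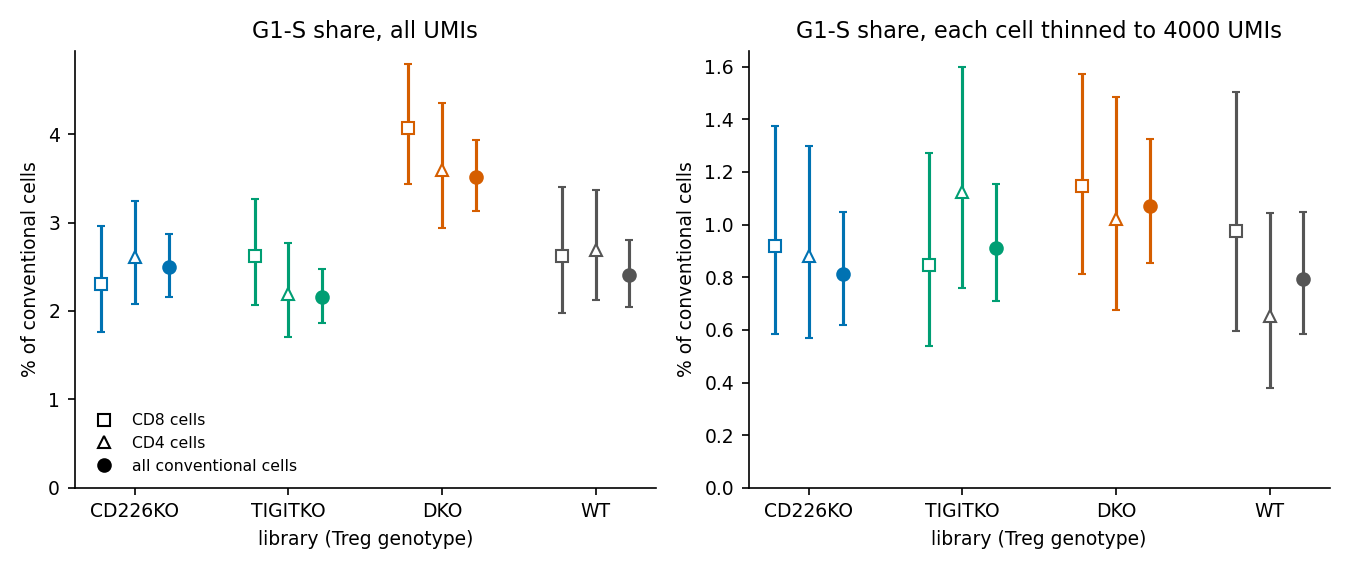
Share of conventional cells meeting the G1-S rule, in percent with 95% Clopper-Pearson intervals, for CD8 and CD4 cells of each library, with all UMIs and after thinning to 4000 UMIs per cell. DKO has the highest shares with all UMIs, 4.07% in CD8 and 3.59% in CD4 cells. The CD8 share lies above the CD4 share in 2 of 4 libraries with all UMIs and in 3 of 4 after thinning.

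The share of G1-S cells was compared between lineages. A cell was resolved as CD8 or CD4 by the more numerous of Cd8a plus Cd8b1 or Cd4 UMIs, which gave 330 CD8, 324 CD4 and 172 unresolved members. In CD8 cells the share was 2.31%, 2.62%, 4.07% and 2.62%, against 2.61%, 2.19%, 3.59% and 2.69% in CD4 cells. The difference averaged 0.132 percentage points (SD 0.383, CD8 higher in 2 of 4 libraries) and did not pass an exact two-sided permutation test over libraries (p = 0.5, the smallest that 4 libraries allow being 0.13). Cyclin E without the bound on mitotic genes gave another picture, since at least 3 cyclin E UMIs were found in 17.4% ± 2.96 of CD8 and 9.71% ± 1.24 of CD4 cells (SD, n = 4), higher in CD8 in 4 of 4 libraries (exact p = 0.13). CD8 cells were also deeper, at median UMIs of 8887 to 11901, against 7039.5 to 9013 in CD4 cells.

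Among the resolved cells of each class, CD8 cells made up 49.0% ± 7.66 of G1-S cells and 31.0% ± 3.74 of cyclin E-negative cells, a difference of 18.0 percentage points seen in 4 of 4 libraries (exact p = 0.13). Of mitotic-transcript cells 48.4% ± 6.40 were CD8, and the difference of 0.578 percentage points did not pass (exact p = 0.75). With 4 libraries no such test can fall under 0.13.

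The step between cyclin E-negative and G1-S cells was smaller in CD8 than in CD4 cells for many replication genes. In a fit of the difference between lineages, 273 of 8500 genes had a lower log2 fold in CD8 (3.21%) and 19 a higher one (0.224%), 3.44% in all. Cdc6 had 84.6, 70.5, 65.9 and 61.6 CPM in CD8 G1-S cells, against 22.1, 33.7, 32.4 and 27.2 CPM in CD8 cyclin E-negative cells, a log2 ratio of 1.27 ± 0.42. It had 95.7, 75.7, 56.0 and 86.6 CPM in CD4 G1-S cells, against 13.1, 18.5, 12.4 and 10.6 CPM in CD4 cyclin E-negative cells, a log2 ratio of 2.44 ± 0.48 (difference -1.31, adjusted p = 1.4e-05). The CD8 cyclin E-negative cells had more Cdc6 than the CD4 ones in every library, while the G1-S cells of both lineages overlapped. Mcm5 showed the same: it averaged 245 CPM in CD8 and 249 CPM in CD4 G1-S cells, against 127 CPM in CD8 and 78.3 CPM in CD4 cyclin E-negative cells (difference in log2 fold -0.76, adjusted p = 4.9e-07).

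By list, 19 of 29 licensing genes had a lower fold in CD8 cells (median difference -0.77), as did 22 of 33 fork genes (-0.66), 9 of 14 genes of deoxynucleotide supply (-0.60), 11 of 23 repair genes (-0.83), 8 of 18 histones (-0.76), 18 of 38 genes of G2 and mitosis (-0.83) and 5 of 13 E2F and RB regulators (-0.56). No gene of these 7 lists had a called higher fold in CD8 cells, and the median over all genes was -0.05. Ung (difference -1.05), Rrm2 (-0.99) and E2f1 (-0.85) were all lower, but E2f1 was not called without CD226KO (adjusted p = 0.060) or without DKO (adjusted p = 0.082). Quiescence genes had 0 of 25 called in either direction (median 0.02). Tcf7, for example, had log2 ratios of -2.71 ± 1.42 in CD8 and -2.87 ± 0.49 in CD4 cells.

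This difference depended on the compared cells. Against depth-matched cyclin E-negative cells 20 genes had a lower and 3 a higher fold in CD8, and 22 of the 286 calls that could be tested there were called again with the same sign. The licensing median was then -0.44 with 4 genes lower, the fork median -0.40 with 1, and the G2 and mitosis median -0.19 with 0. Rrm2 was still called (difference -0.62, adjusted p = 0.035). Cdc6 (-0.82, adjusted p = 0.34), Mcm5 (-0.39, adjusted p = 0.34), Ung (-0.74, adjusted p = 0.15) and E2f1 (-0.53, adjusted p = 0.65) no longer passed. Of the genes with a higher fold in CD8, Cd27, a costimulatory receptor, had a log2 ratio of -0.55 ± 0.14 in CD8 cells and -1.20 ± 0.14 in CD4 cells (difference 0.62, adjusted p = 0.001). Among genes outside the lists with at least 20 CPM, Nrgn (0.94), Nrip1 (0.94), Mcur1 (0.85) and Ankrd12 (0.76) were the others with the highest differences. Nrgn was not called without CD226KO (adjusted p = 0.26) or WT (0.15), Nrip1 without CD226KO (0.16) or TIGITKO (0.0503), nor Mcur1 without any 1 of the 4 libraries. Depth-matched, Nrgn was called (1.85, adjusted p = 8.1e-04), while Cd27 (0.26), Nrip1 (0.64), Mcur1 (0.82) and Ankrd12 (0.57) did not pass (adjusted p = 0.71, 0.59, 0.46 and 0.22). Cd160, of the inhibitory receptor list, was called in the main fit (0.78, adjusted p = 0.025) and depth-matched (1.19, adjusted p = 0.013). It was not called without WT (adjusted p = 0.15), TIGITKO (0.053) or DKO (0.055).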

How the data were processed

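Gene and antibody UMI counts were deposited by the authors as 10x matrices, 1 for each library. The submitters' processing notes name Cell Ranger 3.1.0 and mm10. The cell types, gene lists and comparisons were chosen with earlier results of these data known. Cells were kept and classed by the rules given above. Raw counts were summed per class and library, giving 1746583 to 3143936 UMIs per G1-S sum, and CPM are shares of those sums. Genes were kept by filterByExpr and sums scaled by TMM. The main test was the quasi-likelihood test of edgeR 4.0.16 (R 4.3.3) with a term for the library, and p-values were adjusted by Benjamini-Hochberg and called at 0.05 or less. DESeq2 1.42.0 was an alternative. The test was also run on simulated sums with known changes and the same dispersion for every gene, with the outcome not given here. The 4 libraries are separate pools that also differ in Treg genotype. With the library term, p-values rest on the variation left after class and library, estimated in part from all genes together. They do not measure the spread of a gene's 4 log2 ratios, which the SD gives. The rule's genes were left out of all tests and Cd4, Cd8a and Cd8b1 out of the lineage test. Per-library log2 ratios used a pseudocount of 1 CPM. Depth-matched classes took the nearest cell by total UMIs within library and lineage. Named genes were a fixed set of cell-cycle and T cell genes, the 3 highest and 2 lowest folds of each list among members with at least 20 CPM, and the 10 highest and 10 lowest called genes outside the lists (5 and 5 for the lineage difference). A few genes that this rule would name are not reported here. Other genes named as examples of a list were chosen after their values were seen. Doublets were not called: the antibody ratio removes doublets of different donors. Cells with at least 2 UMIs of Cd4 and at least 2 of Cd8a plus Cd8b1 are reported. Intervals cover counting error only. The alternatives were DESeq2, RLE scaling, no count filter, no block, leaving out each library, depth matching, thinning to 4000 UMIs, a stricter cell filter (1000 genes, 5% mitochondrial), an antibody ratio above 3, cyclin E limits of 2 and 5, and a mitotic limit of 0. Sums, shares and motifs were computed in Python 3.11.15 with numpy 2.4.6, pandas 2.3.3 and scipy 1.17.1.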

Additional observations from a re-analysis of the deposited data

Results flagged for a closer look

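Values of 4 libraries were examined for a single library far from the rest, over 53 values, and chance flags about 1 in 20 groups. The log2 ratio of Cdk2 in G1-S over cyclin E-negative cells was 1.59 in CD226KO, apart from the other 3 libraries. The median log2 ratio of the replication-dependent histones was 1.46 in TIGITKO, below the other 3.

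The step between cyclin E-negative and G1-S cells differed between lineages in the fit of the difference itself, with 273 genes having a lower log2 fold and 19 a higher one in CD8 than in CD4 cells. Among the genes named, the CD8 minus CD4 difference was -1.42 for Pbk, -1.38 for Aunip, -1.32 for Fbxo5, -1.29 for Esco2 and -1.26 for Knl1. It was -0.76 for Mcm5, -0.66 for Pcna, -0.59 for Slbp, -0.91 for Mki67, -0.84 for Top2a, -0.73 for Tyms and -0.28 for Gzmb. Against depth-matched cells Fbxo5 (-0.74, adjusted p = 0.047) and Nrgn (1.85, adjusted p = 0.00081) were called, and the other genes named here were not, with adjusted p from 0.09 (Slbp) to 0.91 (Knl1) and a difference of 0.070 for Gzmb (adjusted p = 0.83). In the main fit the CD8 minus CD4 difference was 0.94 for Nrgn, 0.94 for Nrip1, 0.85 for Mcur1, 0.76 for Ankrd12 and 0.62 for Cd27. Pbk (-1.12) and Knl1 (-1.08) were not called without the DKO library (edgeR's quasi-likelihood test, adjusted p = 0.054 and 0.075), nor Gzmb (-0.13) without TIGITKO (adjusted p = 0.17), and Nrgn, Nrip1 and Mcur1 were lost without 1 library as given above.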

How the results depend on the processing

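No paired analysis was possible between genotypes because each has 1 library; libraries were the block between classes. Without the replicate block, genes higher and lower than in cyclin E-negative cells numbered 2441 and 2308, close to 2612 and 2505. Other counts of that comparison were 1132 and 1065 depth-matched, 1410 and 1482 at a cyclin E limit of 5, 1524 lower with DESeq2 and 1624 lower with thinned cells. In gene tests the thinned cells kept the class given by all their UMIs, whereas the thinned shares applied the rule to thinned counts. Leaving out 1 library gave 2282 to 2423 higher and 2058 to 2265 lower. Against mitotic-transcript cells (2225 and 2181) there were 946 and 1056 at a limit of 5, 1327 lower with DESeq2, 1339 lower with thinned cells, and 1762 to 2099 higher and 1677 to 1875 lower without 1 library. The lineage difference (19 and 273) moved under many alternatives. Its higher and lower genes numbered 6 and 119 with DESeq2, 6 and 176 with no replicate block, 3 and 20 depth-matched, 5 and 87 thinned, and 4 and 46 at a limit of 5. Its higher genes were 36 with no filter and 57 at a limit of 2, its lower genes 83 at an antibody ratio above 3 and 123 with no mitotic UMI. Leaving out 1 library gave 14 to 27 higher and 155 to 184 lower, with 155 lower without DKO, 161 without CD226KO and 172 without TIGITKO.

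Ccne2-only against Ccne1-only cells (0 higher, 1 lower) gave 2 higher with RLE scaling and 6 at a limit of 2, and 0 lower with DESeq2, depth-matched or thinned, 4 with no filter, 5 with no replicate block and 9 at a limit of 2. Leaving out 1 library gave 0 to 1 higher, the 1 without DKO, and 1 to 15 lower, with 15 without DKO and 2 without TIGITKO; this fit could not be made at a limit of 5, with no mitotic UMI or at a ratio above 3. Ccne2-bearing against Ccne2-negative cells (2 and 3) gave 0 and 0 with DESeq2, with no replicate block and at limits of 2 and 5, 7 and 8 with no filter, 1 and 1 at a ratio above 3, 1 lower thinned, and 0 to 6 higher and 0 to 5 lower without 1 library.

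Shares in CD226KO, TIGITKO, DKO and WT were 5.08%, 5.21%, 6.78% and 5.255% at a limit of 2, 0.310%, 0.399%, 0.655% and 0.452% at 5, 1.32%, 1.06%, 1.73% and 1.14% with no mitotic UMI, and 0.812%, 0.912%, 1.07% and 0.792% after thinning. The CD8 minus CD4 share was -0.340 percentage points with no mitotic UMI and 0.0164 to 0.279 without 1 library. Single genes changed sign as follows. Against depth-matched cyclin E-negative cells the log2 folds were -0.18 for Cdkn1a, 0.084 for Cdkn2d, -0.035 for Rps2, -0.011 for Rps20, -0.048 for Dnaja1, -0.035 for Cct2, 0.018 for Klf2, -0.21 for Havcr2, -0.39 for Cd160 and -0.19 for Gadd45g. Dnaja1 was -0.0059 thinned, Ifng -0.23 without DKO and 0.86 without CD226KO, and Pim1 -0.039 at a limit of 5. Against mitotic-transcript cells Asf1b was 0.19 thinned, Gzma 0.091 without CD226KO and -0.15 without WT, and at a limit of 5 Dnaja1 was 0.011, Cst7 -0.033, Ccl5 -0.53 and Fbxw7 -0.10. In the lineage difference Rps27 was -0.035, Ltb -0.076, Itga4 0.013 and Gzmb 0.070 depth-matched, Ccl1 0.095 at a limit of 5 and Ifit1 1.07 with no mitotic UMI. The cause was not tested. At the depth of these cells a limit of 3 UMIs misses shallow cells, and 154 to 290 members per library limit the rare genes.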
